A study of Mus musculus with 10 samples.

Results

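The Il1 receptor gene cluster of mouse chromosome 1 holds Il1r2, Il1r1, Il1rl2, Il1rl1, Il18r1 and Il18rap side by side, and its open chromatin was followed from fibroblasts to pluripotent cells. Peaks of ATAC-seq, in which a transposase cuts accessible DNA, were taken from each of these 6 genes and 20 kb on either side, in the coordinates of mm10. Peaks that overlapped between libraries were merged into elements. The windows held 30 elements of the 208851 regions found in the whole series, and these are numbered 1 to 30 along the chromosome. The genes were chosen by the peak values of fibroblasts and later stages, since an element inside Il1rl1 was among the strongest of fibroblasts and was not listed afterwards. Fibroblast values set against later stages are therefore a description, with no test.

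There were 2 libraries at each of 5 stages, all of strain C57BL/6 x 129 and of 1 batch name. Mouse embryonic fibroblasts (MEF) with the OKSM cassette in Col1a1 and M2rtTA in Rosa26 were collected unsorted, in fibroblast medium without doxycycline. Cells of the same genotype were collected after 3, 6 and 9 days (DAY3, DAY6, DAY9) in stem cell medium with doxycycline at 1 ug/ml and ascorbic acid at 50 ug/ml. The DAY3 cells were unsorted, and the DAY6 and DAY9 cells were sorted for SSEA1, a surface marker of cells that progress towards pluripotency. Embryonic stem cells of the line V6.5 (ESC), without the cassette and unsorted, were grown on irradiated feeder cells. The change to stem cell medium with doxycycline and ascorbic acid thus coincided with the step from MEF to DAY3. Sorting coincided with DAY6 and DAY9, and the line and the lack of the cassette with ESC. None of these can be told apart from stage. Summit pileups differed between the 2 DAY3 libraries, and between the 2 DAY9 libraries, by little more than counting noise (variance ratios of 1.33 and 1.42, where counting alone gives about 1, against 3.61 to 8.11 at the other stages). Each of these pairs counts as 1 sample, so a peak in both of its lists is no independent repeat.

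The receptors of this cluster belong to the interleukin-1 receptor family, whose members pair at the cell surface and signal through MYD88 to NF-kB. Il1r1 encodes the signalling receptor for IL-1, which fibroblasts are known to answer with cytokine and protease genes, and Il1r2 encodes a decoy that binds IL-1 without signalling. Il1rl2 encodes the receptor for IL-36 cytokines, Il1rl1 (ST2) the receptor for IL-33, and Il18r1 and Il18rap the subunits of the IL-18 receptor. Il1rl1 is known to be transcribed from alternative promoters, an upstream one used in mast cells and other blood cells and a downstream one used in fibroblasts.

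Promoters of Il1r2, Il1r1 and Il1rl1 are shown because their peaks followed different courses. Each sequence is the 250 bases before a start site, 5′ to 3′ on the plus strand, from RefSeq on GRCm38.p6. All 6 genes matched the table, with 10 start sites. The RefSeq ranges of Il1r2, Il1r1 and Il1rl1 begin earlier, at chr1:40084692, chr1:40222480 and chr1:40404864, with no start site there among the 10. No element covers these positions. The order is Il1r2 (chr1:40085843-40086092), the upstream start of Il1r1 (chr1:40224830-40225079), the downstream start of Il1r1 (chr1:40266336-40266585), the upstream start of Il1rl1 (chr1:40429320-40429569) and the downstream start of Il1rl1 (chr1:40439379-40439628). Capitals mark the letters of 7 motifs, searched on both strands.
Il1r2: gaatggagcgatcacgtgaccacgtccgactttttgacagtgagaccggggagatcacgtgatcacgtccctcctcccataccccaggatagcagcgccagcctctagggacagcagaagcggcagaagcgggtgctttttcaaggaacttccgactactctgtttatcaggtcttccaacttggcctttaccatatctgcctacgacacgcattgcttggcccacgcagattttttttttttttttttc
Il1r1 upstream start: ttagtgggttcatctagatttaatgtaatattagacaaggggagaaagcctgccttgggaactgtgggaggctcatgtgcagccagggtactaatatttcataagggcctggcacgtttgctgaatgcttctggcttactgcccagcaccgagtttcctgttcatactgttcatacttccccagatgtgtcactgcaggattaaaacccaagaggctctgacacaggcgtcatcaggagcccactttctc
Il1r1 downstream start: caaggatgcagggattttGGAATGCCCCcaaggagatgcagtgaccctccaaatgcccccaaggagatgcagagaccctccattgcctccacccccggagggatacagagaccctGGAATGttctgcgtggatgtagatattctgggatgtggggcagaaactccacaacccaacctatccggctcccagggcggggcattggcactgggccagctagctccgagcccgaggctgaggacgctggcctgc
Il1rl1 upstream start: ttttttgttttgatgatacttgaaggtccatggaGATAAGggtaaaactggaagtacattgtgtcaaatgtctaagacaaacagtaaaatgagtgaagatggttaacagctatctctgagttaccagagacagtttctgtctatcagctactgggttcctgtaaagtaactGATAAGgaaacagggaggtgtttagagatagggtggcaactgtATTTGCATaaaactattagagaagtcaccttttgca
Il1rl1 downstream start: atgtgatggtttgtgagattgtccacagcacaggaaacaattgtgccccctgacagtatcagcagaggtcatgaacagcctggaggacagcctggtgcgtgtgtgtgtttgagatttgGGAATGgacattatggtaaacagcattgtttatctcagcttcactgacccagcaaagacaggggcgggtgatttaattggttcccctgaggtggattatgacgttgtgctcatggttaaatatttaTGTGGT
The AP-1 motif, TGANTCA, is held by 6.75% of the 32851 RefSeq promoters cut to the same length. The Runx motif, TGTGGT, is held by 14%. The Tead motif, GGAATG, is held by 12.6%, and the Gata motif, given as GATAAG, by 6.55%. The octamer, ATGCAAAT, is held by 1.6%, and the Klf motif, read as GGGTGTGG, by 3.2%. A loose NF-kB motif, 3 G and 2 C with any 5 bases between them, is held by 45.8%. The upstream promoter of Il1rl1 held the Gata motif 2 times and the octamer 1 time, and its downstream promoter held the Tead and Runx motifs 1 time each. The downstream promoter of Il1r1 held the Tead motif 2 times, the first inside a match to the NF-kB motif. None of the 7 was found in the Il1r2 promoter or in the upstream promoter of Il1r1. The Il1r2 promoter had 14 CpG dinucleotides and 51.2% GC, and the downstream Il1r1 promoter had 7 and 60.4%. The upstream Il1r1 promoter had 3 and 48.4%, the downstream Il1rl1 promoter 3 and 46.4%, and the upstream Il1rl1 promoter 0 and 37.6%. The medians over all promoters were 6 CpG dinucleotides and 52.4% GC.

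Most open elements of the cluster were those of fibroblasts. Of the 30 elements, 21 had a peak in MEF replicate 1 and 16 in MEF replicate 2. The DAY3 libraries had 3 and 3, the DAY6 libraries 4 and 5, the DAY9 libraries 4 and 5, and the ESC libraries 9 and 6 (replicate 1, then 2). Both MEF counts thus lay above all 8 later counts. Over the whole series the course was different: MEF libraries had peaks in 34.9% and 29.9% of all regions, DAY3 in 21.2% and 21.1%, and ESC in 40.3% and 41.7%.

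**Figure D1:**
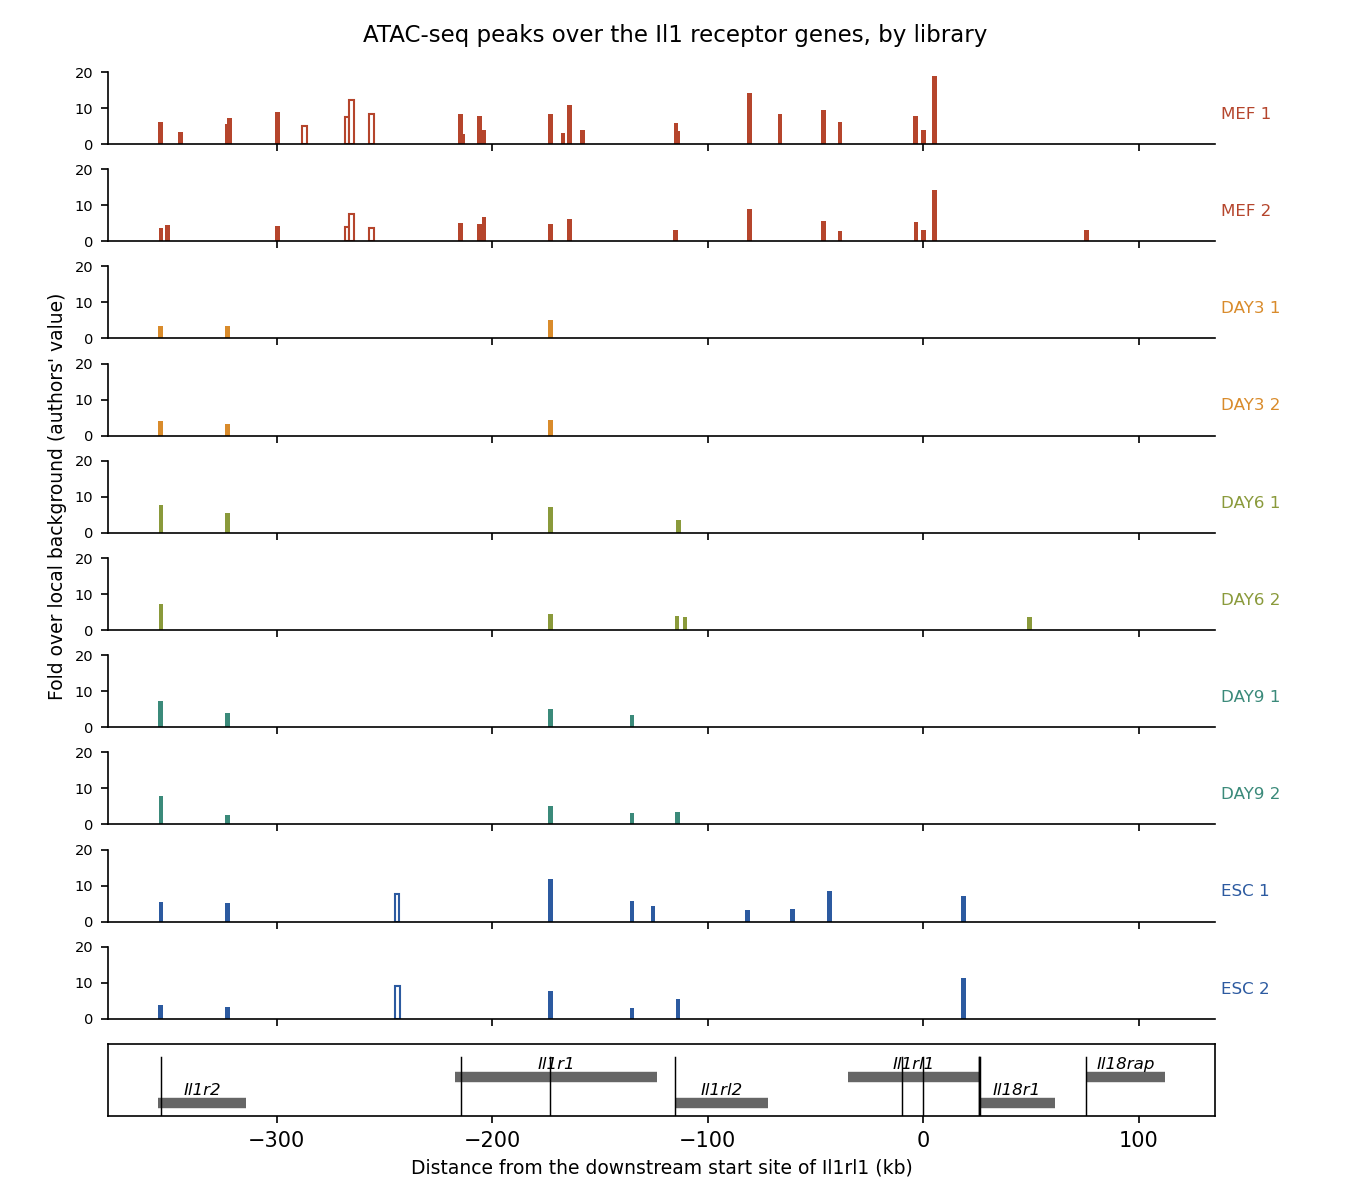
Peaks over the cluster in each of the 10 libraries, placed by distance (kb) from the downstream start site of Il1rl1; bar height is the authors' fold over local background, bar width is not to scale, open bars lie between the 20 kb windows and outside the rule, and the lowest track shows the genes with start sites as lines. The MEF tracks hold most peaks, and the tallest, at 18.9 and 14.3, lie inside Il1rl1.

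A peak in both libraries of a stage was present at 14 elements in MEF, or 46.7% of the 30, against 22.1% of all regions. At DAY3 it was present at 3 elements (16.9% of all regions). DAY6 also had 3 (21.7%), DAY9 had 4 (30.8%) and ESC had 5 (28.2%). Of the 14 MEF elements, 12 had no peak in either DAY3 library, against 47.1% of the 46089 MEF regions of the series, those listed in both MEF libraries. In ESC 10 of the 14 had no peak, against 50.5%. In DAY6 and in DAY9, 11 of the 14 had none, against 48.2% and 49.7%. In all, 10 of the 14 had peaks in MEF and in none of the 8 later libraries, against 37.7% of MEF regions. Among MEF regions over 1 kb from a gene start the background was 48.1%, and 8 of the 9 such elements of the cluster were listed in MEF alone. These shares rest on few elements and on the contrast by which the genes were chosen.

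**Figure D2:**
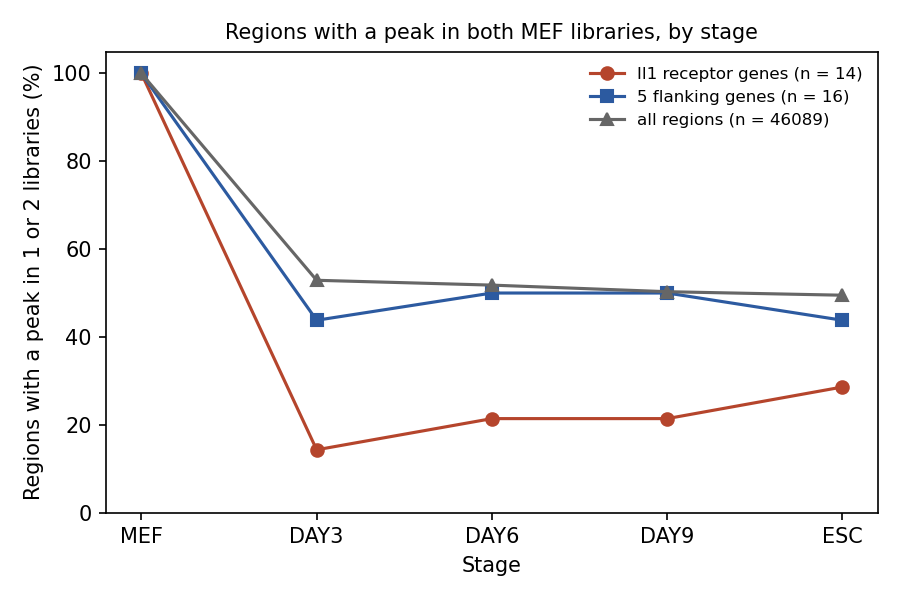
Share of MEF regions (listed in both MEF libraries) that were listed in 1 or 2 libraries of each stage (y axis, percent; x axis, stage), for the Il1 receptor genes (14 regions), 5 flanking genes (16) and all regions (46089). The receptor genes fall to 14.3% at DAY3 and reach 28.6% in ESC, while all regions stay near 50%.

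Counting peaks in a single library as well, 18 of the 30 elements were listed in 1 or both MEF libraries and nowhere else, against 21.5% of all regions. Listed in 1 or both ESC libraries alone were 4 (24.3% of all regions), and in DAY6 alone 2 (3.09%), and the other 6 elements were listed at 2 or more stages. Of the 9 elements listed in a single MEF library, 7 were in replicate 1 and 2 in replicate 2. MEF replicate 1 had the lower background pileup of the pair, 3.415 against 8.322 fragments, and the longer list, with 74444 against 64295 peaks.

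Il1rl1 carried the strongest element and had the plainest course. Element 27 (chr1:40444648-40445342) lies inside the gene, 5.37 kb after its downstream start. Its fold over local background was 18.9 in MEF replicate 1 and 14.3 in MEF replicate 2, from recovered summit pileups of 249 and 195 fragments. It ranked 526 of 74444 and 521 of 64295 by p-value in these lists, and 2 in both among the 17371 regions of the series listed in both MEF libraries and in no other. No DAY3, DAY6, DAY9 or ESC library listed a peak there. These values chose the cluster and support nothing further.

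Other elements of Il1rl1 followed the same course. Element 25 (chr1:40435904-40436638), between the start sites, had a fold of 7.73 and 5.36 in MEF replicates 1 and 2. Element 26 (chr1:40439393-40439825) covers the downstream start, and its fold was 3.78 and 3.22, among the weaker peaks of both lists. Before the gene, element 22 (chr1:40393192-40393672) had a fold of 9.51 and 5.58, and element 24 (chr1:40400745-40401263) 6.12 and 2.90. All 5 elements within 20 kb of Il1rl1 that were listed in both MEF libraries, element 27 included, had no peak in any of the 8 later libraries. The upstream start, whose promoter holds the GATAAG letters, had no peak over its 300 RefSeq bases in any of the 10 libraries. Of these 2 start sites, MEF had a listed peak at the downstream one alone.

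Il1rl1 also held an element of stem cells. Element 28 (chr1:40457922-40458517), 13.2 kb after element 27, had a fold of 7.14 and 11.3 in ESC replicates 1 and 2. No MEF, DAY3, DAY6 or DAY9 library listed it. It lies within 20 kb of Il18r1 as well, and the start nearest to it is that of Il18r1. It was the 1 element of the cluster listed in both ESC libraries and nowhere else, a call made for 7.91% of all regions.

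Il1r1 showed a split between the start sites shown above, which lie 41.5 kb apart. Element 7 (chr1:40224719-40225293), over the upstream start, had a fold of 8.33 and 5.04 in MEF and was listed at no later stage. Element 11 (chr1:40266125-40267125), over the downstream start, was listed in all 10 libraries. Its fold was 8.39 and 4.83 in MEF and 5.08 and 4.47 in DAY3. The DAY6 folds were 7.19 and 4.51, those of DAY9 4.92 and 5.14, and those of ESC 11.9 and 7.74. The highest value was that of ESC replicate 1, and the range of the MEF values overlapped that of every other stage.

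**Figure D3:**
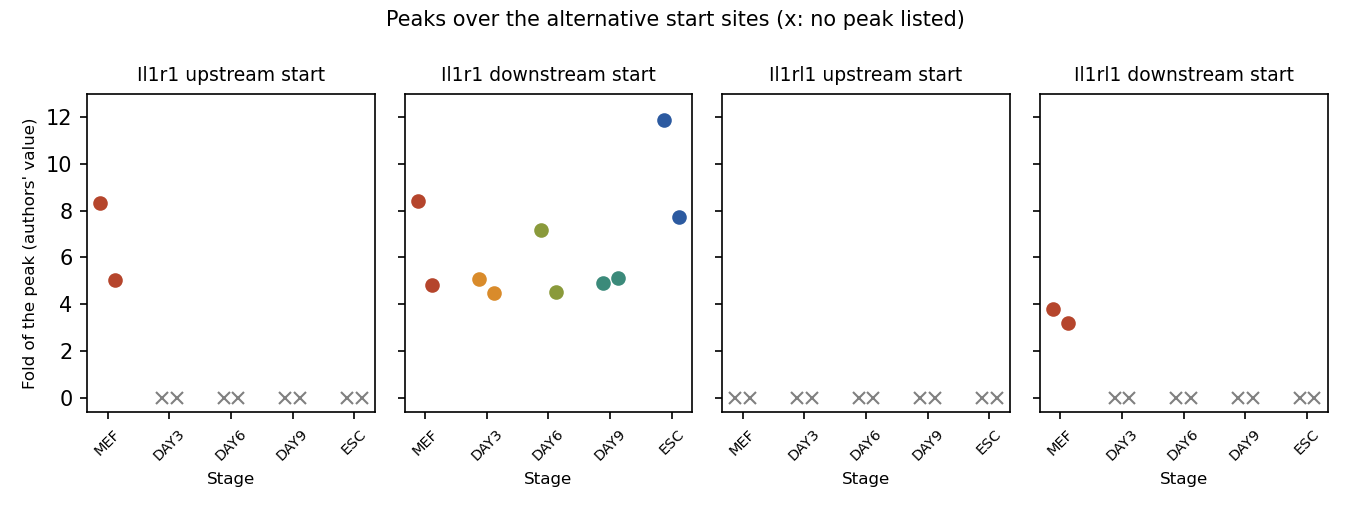
The authors' fold (y axis) of the peak over each of the 2 start sites of Il1r1 and of Il1rl1, by stage (x axis), 1 point a library with replicate 1 to the left; a cross at 0 stands for no listed peak. The downstream start of Il1r1 has a peak in all 10 libraries, the upstream start of Il1r1 and the downstream start of Il1rl1 in the 2 MEF libraries, and the upstream start of Il1rl1 in none.

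Inside Il1r1, 3 more elements were listed in both MEF libraries and in none after. Element 9 (chr1:40233212-40234021) had a fold of 7.84 and 4.64, element 10 (chr1:40235436-40236166) 3.99 and 6.85, and element 13 (chr1:40275053-40275845) 10.9 and 6.11. Element 10 was the 1 element of the 14 with a higher fold in MEF replicate 2 than in replicate 1. Element 15 (chr1:40304253-40304722), near the end of Il1r1, was a late element. Its fold was 3.48 and 3.22 in DAY9 and 5.80 and 2.94 in ESC, and no MEF, DAY3 or DAY6 library listed it. A gain from MEF to ESC was called for 2 of 30 elements, this one and element 28, against 15.9% of all regions.

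Il1r2, the decoy, had a peak within 1 kb of its start in all 10 libraries. The start site itself was covered in MEF replicate 2, DAY6 replicate 2, both DAY9 libraries and ESC replicate 1. In the other libraries the peak ended before it. Element 1 (chr1:40085459-40086150), which also overlaps the end of the noncoding gene Gm16894, was listed in all 10 libraries. Its fold was 6.12 and 3.65 in MEF and 3.33 and 4.15 in DAY3. The DAY6 folds were 7.86 and 7.21, those of DAY9 7.21 and 7.88, and those of ESC 5.58 and 3.72. All 4 DAY6 and DAY9 values, from the sorted cells, lay above the 6 others. Elements 1 and 11 were the 2 of 30 listed in both libraries of all 5 stages, against 7.35% of all regions. Element 4 (chr1:40116371-40116885), inside Il1r2, was listed in 8 libraries, with a fold of 2.63 to 5.66, and was missing from MEF replicate 2 and DAY6 replicate 2. Element 6 (chr1:40139718-40140341), after the gene, had a fold of 8.83 and 4.18 in MEF and no later peak.

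Il1rl2 held 2 MEF elements, and both overlapped a later peak. Element 19 (chr1:40357595-40359343), inside the gene, had the next highest MEF folds of the cluster after element 27, with 14.3 and 8.97. The sole later peak, of fold 3.35 in ESC replicate 1, met the edge of the MEF peak. With windows of 500 bp round the peak centres in place of merged peaks, 11 elements rather than 10 were listed in MEF alone. Element 17 (chr1:40324311-40326312) covers the start of Il1rl2 and merges several peaks, of which the strongest in each library had a fold of 5.96 and 3.14 in MEF, 3.59 and 3.91 in DAY6, 3.34 in DAY9 replicate 2 and 5.57 in ESC replicate 2. It was not listed in DAY3, DAY9 replicate 1 or ESC replicate 1. Only the MEF libraries had a peak over the start itself. The later peaks lay after it, inside the gene, and the 2 DAY6 peaks (chr1:40325875-40326164 and chr1:40325226-40325543) did not overlap each other, so element 17 counts for DAY6 through the merging alone.

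**Figure D4:**
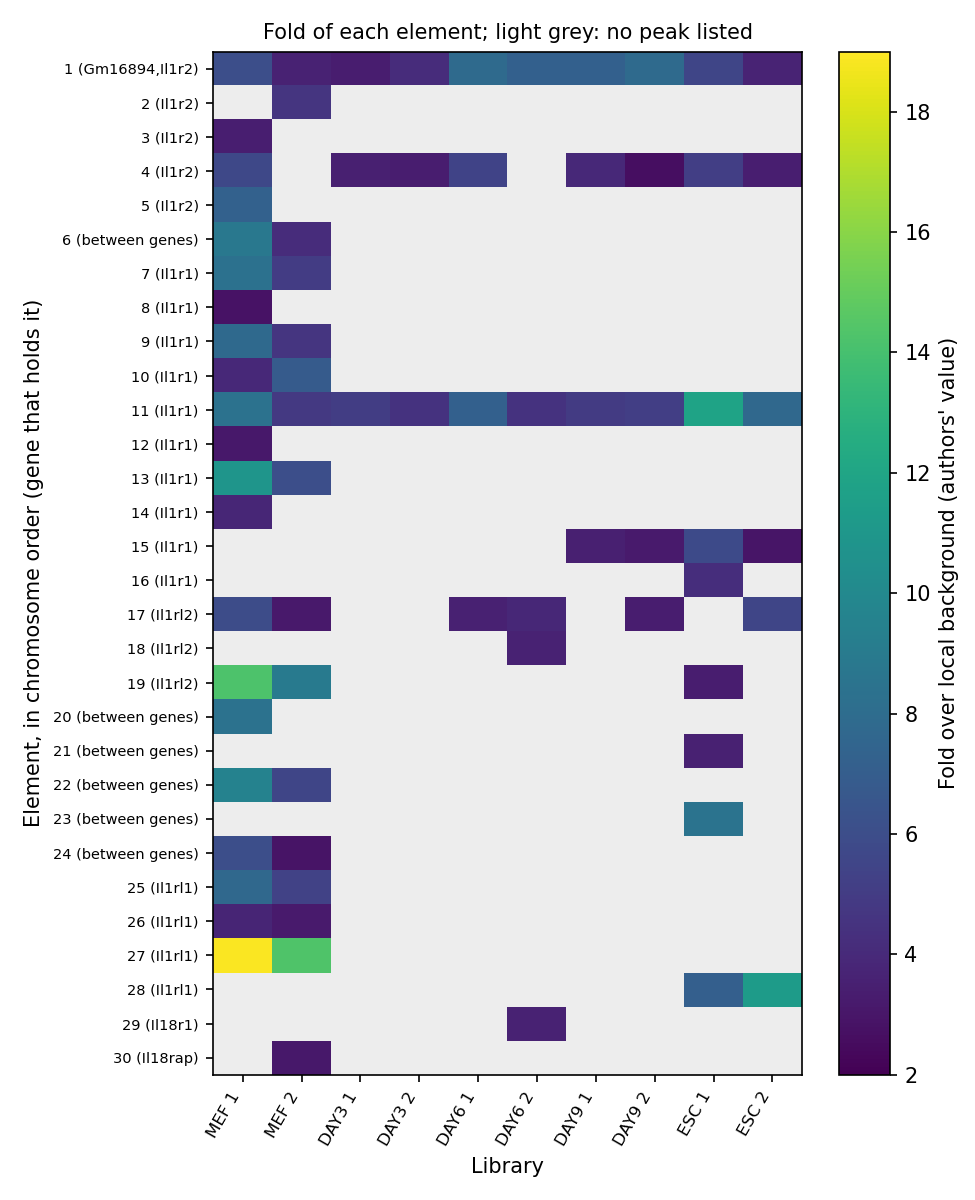
Fold over local background, the authors' value, of each of the 30 elements (rows, in chromosome order with the gene that holds each) in the 10 libraries (columns); light grey means that no peak was listed. Elements 1 and 11 run across all columns, and 10 rows are filled in both MEF columns alone.

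The IL-18 receptor genes were nearly without peaks. Il18r1 held a single listed peak inside the gene, element 29, with a fold of 3.61 in DAY6 replicate 2, and none at its 3 start sites in any library. Element 30, over the start of Il18rap, had a fold of 3.11 in MEF replicate 2 and no peak elsewhere. No element inside either gene was listed in both libraries of a stage, and element 28, inside Il1rl1, was the 1 such element within 20 kb of Il18r1.

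Of the 11 elements not described so far, 6 were listed in MEF replicate 1 or 2 alone (elements 2, 3, 5, 8, 12 and 14, inside Il1r2 and Il1r1), with folds of 2.80 to 7.25. Element 20, between Il1rl2 and Il1rl1, had a fold of 8.38 in MEF replicate 1. Elements 16, 21 and 23 were listed in ESC replicate 1 alone, with folds of 4.24, 3.57 and 8.48, and element 18 in DAY6 replicate 2 alone, at 3.61. The 10 elements listed in both MEF libraries and nowhere else were 433 to 810 bp wide and stretched over 306 kb. In the windows of the cluster there were 22.2 such elements per Mb, against 6.38 per Mb of genome. The cluster was chosen by this contrast, and its windows lie on genes while the genome value also covers stretches without genes. The difference is therefore a description. The expected pileup, which sets the local background of the fold, exceeded that of the whole list by over 1% at 13 of 22 peaks in MEF replicate 1 and at 5 of 16 in MEF replicate 2. It was highest at element 27 in both, at 12.22 fragments against 3.415 in replicate 1 and 12.68 against 8.322 in replicate 2.

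Where no peak is listed, the data do not give a value of 0. At the background of each list, a peak passed the lowest deposited −log10 p-value of 5 from a fold of 2.57 (MEF replicate 2) to 3.61 (DAY6 replicate 2), and from 3.01 and 3.03 in DAY3. Some peaks had also been removed from the lists by a rule that is not stated: 58.2% to 75.9% of the peak numbers were kept. The folds above are therefore no ceiling for a place without a listed peak. The numbers rose along each chromosome in all 10 lists. Between the listed peaks on either side of element 27, ESC replicate 1 had no number missing and ESC replicate 2 had 1. The DAY3 lists had 2 and 4 missing, the DAY6 lists 6 and 1, and the DAY9 lists 2 and 2. These listed neighbours lie over 100 kb before the element in DAY3, DAY6 and DAY9, so the place of the missing peaks is not known. In such bulk libraries, fewer cells with an open element and less opening in each cell cannot be told apart.

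The edges of the cluster were set by the rule. The listed peak farthest from a member gene inside the limit of 20 kb lay 14659 bp away (element 6, fold 4.18 in MEF replicate 2), and the nearest outside lay 26525 bp away (fold 7.58 in ESC replicate 1). The 57.2 kb between the windows of Il1r2 and Il1r1 held 5 more elements. The strongest of these (chr1:40174078-40174589 in MEF replicate 1) had a fold of 12.4 and 7.52 in MEF and no later peak. In all, 3 of the 5 were listed in both MEF libraries and nowhere else, and 1, with a fold of 7.58 and 8.98, in both ESC libraries and nowhere else. Around the flanking genes Map4k4, Slc9a4, Slc9a2, Mfsd9 and Tmem182, 50 further elements were found. Of these, 16 were listed in both MEF libraries, 9 in both of DAY3, 16 in both of DAY6, 19 in both of DAY9 and 11 in both of ESC. Of their 16 MEF elements 7 were listed in MEF alone, beside 10 of 14 in the receptor genes, and this difference was not tested.

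Among the other genes of the pathway, the start was judged open where a peak lay within 1 kb of a RefSeq start in both libraries of a stage, or of either gene end where the table had no start. By this rule 56.8% of the 21887 protein-coding genes were open in MEF and 56.2% in DAY3. The share was 60.5% for DAY6, 63.7% for DAY9 and 63.1% for ESC. Of the 6 receptor genes, Il1r2, Il1r1, Il1rl2 and Il1rl1 were open in MEF, and Il1r2 and Il1r1 at each later stage. All 13 signalling genes, among them Myd88 (the adaptor), Irak1 and Irak4 (its kinases) and Nfkb1, were open at all 5 stages. Of the 10 ligand genes that RefSeq holds, between 1 (DAY6 and ESC) and 3 (DAY9) were open at a stage, with 2 in MEF and DAY3. Il1a and Il1b had no peak within 1 kb of a start in any library. Il33, the ligand of the Il1rl1 product, was open in DAY9 and ESC and had a peak there in 1 MEF library. Of 5 co-receptor and decoy genes, 1 was open in MEF, DAY3 and DAY6, 2 in DAY9 and 3 in ESC. Sigirr, a negative regulator of the family, was open in DAY9 and ESC with no MEF peak within 1 kb of either gene end. Of 10 target genes known from fibroblasts, 6 were open in MEF and DAY3, 7 in DAY6, and 5 in DAY9 and ESC. A start open in MEF and without a peak in any later library was found for 0.571% of all genes, and among the receptor and pathway genes at Il1rl1 alone.

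Marker genes were read by the same rule to check the labelled cells. A peak of a marker here means one within 1 kb of its start, or of either gene end where the table had no start. Of 10 fibroblast markers 8 were open in MEF and 1 to 3 at each later stage (1 in DAY9). Col3a1, Postn and Fap were open in MEF alone and had no peak in either library of ESC. Col1a2, Pdgfrb and Prrx1 were open in ESC, the cells grown on feeders, and Thy1 and Twist2 had a peak in 1 ESC library. Of 10 pluripotency markers none was open in MEF, 1 was by DAY3, 6 by DAY6, 8 by DAY9 and all 10 in ESC. Nanog, Sall4, Tdgf1, Fbxo15, Lin28a, Prdm14 and Dppa4 had no MEF peak, and Dppa5a, Zfp42 and Esrrb had a peak in 1 MEF library. Il1rl1 and the IL-18 receptor are also known from mast cells and lymphocytes, and few markers of blood or vessel cells were open in MEF: 1 of 8 for mast cells (Gata2), 2 of 8 for macrophages, 3 of 8 for T, NK and innate lymphoid cells and 0 of 6 for endothelium. Ptprc, Cpa3, Fcer1a, Cd3e and Pecam1 had no peak in any library. Cd68 was open in DAY3, DAY9 and ESC with no MEF peak.

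The genes most like Il1rl1 were sought by the summed fold of all peaks in a gene and 20 kb on either side. For Il1rl1 this sum was 46.1 and 31.4 in MEF, 0 in all DAY3, DAY6 and DAY9 libraries, and 15.6 and 11.3 in ESC. The Euclidean distance on the log2(sum + 1) scale over 8 samples was smallest for Musk, at 0.589, with sums of 39.8 and 22.3 in MEF and 14.8 and 9.19 in ESC. It was 1.59 for Tmprss11c, 2.04 for 9930111J21Rik2, 2.22 for Prss43 and 2.35 for 2210010C04Rik. All but Tmprss11c, with 3.01 in DAY3 replicate 1, were at 0 in DAY3, DAY6 and DAY9. For the other receptor genes the sum in MEF was 58.8 and 30.6 at Il1r1, 32.3 and 12.1 at Il1rl2, 31.3 and 12.4 at Il1r2, and at most 3.11 at Il18r1 and Il18rap. These windows overlap, so neighbouring members share peaks.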

How the data were processed

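ATAC-seq peak lists of 10 mouse libraries were used, 1 list per library with replicates not pooled. Per the submitters' processing notes, the tools were Bowtie2 2.3.2, MACS2 2.1.1 and deepTools 2.3.6 and the build mm10; roles, filters, duplicate handling and transposase offset are not given in the sources used here. The authors deposited a score (10 times the −log10 p-value, rounded down), a fold (a linear ratio of summit to local background), and −log10 p- and q-values. The deposited column for summit positions holds no position, so peak centres were used where summits had been planned. Read totals are not in the lists, so depth is known only as the background pileup, 2.327 to 8.322 fragments. Intervals for counting error cannot be given.

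Lists were merged into regions (overlap of 1 bp or more) with Python 3.11.15, pandas 2.3.3 and SciPy 1.17.1. Summit pileups were recovered from fold and p; a whole number met the p-value within 0.01 in at least 99.989% of the peaks up to a −log10 p-value of 300. The calls and the recovery were tested on simulated data. A stage has a region if both its libraries list a peak. No test between stages was made: an exact permutation test of 2 libraries against 2 cannot pass a threshold of 0.05, and the lists hold no counts to model. Counts stand beside the share of all regions. Folds of different lists are set side by side as descriptions, since depth differs. Gene positions and promoters are from RefSeq (GRCm38.p6, the same assembly as mm10), whether an element is exonic or intronic was not analysed here, and no genome sequence was used. All 6 genes and each element with a peak in both libraries of a stage are named, and the 5 genes most like Il1rl1, leaving out overlapping windows. Members and lists were chosen with earlier results of these data known.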

Additional observations from a re-analysis of the deposited data

How the results depend on the processing

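The number of elements listed in MEF alone was 10, and it was 9 with the top 50% of each list or with lists cut to the length of the shortest, 8 of them shared, and 10 with 50% of the element covered. With the top 50% of each list, elements with a peak in both libraries numbered 0 in DAY3, 1 in DAY6, 2 in DAY9 and 2 in ESC, 1 was gained from MEF to ESC and 0 were listed at all 5 stages. With lists of equal length these were 2 in DAY9, 2 in ESC, 1 gained and 1 at all 5 stages. With 50% covered they were 2 in ESC, 1 gained and 1 at all 5 stages. With 50 kb round the genes 2 elements were listed in ESC alone. Windows of 500 bp round peak centres, added after seeing that no summits are given, and 10 kb round the genes kept all 11 counts within 1.5 times.

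Leaving out 1 library, elements in both remaining MEF lists numbered 14 to 21, in DAY3 3, in DAY6 3 to 5, in DAY9 4 to 5 and in ESC 5 to 9. Those lost from MEF to DAY3 numbered 12 to 18, lost from MEF to ESC 10 to 16, gained from MEF to ESC 2 to 5, listed in MEF alone 10 to 16, in ESC alone 1 to 4 and at all 5 stages 2. The highest counts came without MEF replicate 2 (16 in MEF alone), DAY6 replicate 1 (5 in DAY6) and ESC replicate 2 (9 in ESC, 5 gained, 4 in ESC alone), since a single list then sufficed. On the scale of pileup over list background, 17 of 29 mean folds moved by more than the spread of the 2 libraries. No paired analysis was possible because no result comes from a test between stages, and whether the replicate numbers pair libraries was not examined.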
